A study of Mus musculus with 37 samples.

Results

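The genes described here are 40 genes of muscle contraction that were measured in mouse cerebral cortex, among 18193 genes with a probe set of 1 gene symbol on the arrays. They were taken as a named list, and each was represented by its brightest probe set, the one with the highest mean level over all arrays. The list grew from 4 genes, Myh7, Myl4, Tnnc1 and Ryr1, that had been noted because their levels were lower in R6/2 than in WT cortex. The values of R6/2 against WT are therefore given as a description with no test. Arrays of the other 2 genotypes, Dble::R6/2 and Hdac4HET, were not part of the comparison in which those 4 genes were noted. The comparison between them is the tested one. It measures the effect of the same transgene, and the list was drawn up with earlier results of these data known. It is therefore not an independent test of the list.

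Cortex RNA came from 37 mice at 9 wk of age, both sexes in every group, with 1 Affymetrix expression array per mouse. The groups held 9 WT, 9 Hdac4HET, 9 R6/2 and 10 Dble::R6/2 animals. R6/2 mice are hemizygous for a transgene that encodes a mutant N-terminal fragment of human huntingtin, the product of exon 1 of HTT, and model Huntington's disease. In Hdac4HET mice 1 of the Hdac4 alleles is null, and the Dble::R6/2 genotype combines that allele with the transgene. All 4 genotypes were on a mixed CBA and C57BL/6 background, and the Hdac4 null allele was made in another inbred strain, so sequence around that gene can differ in its carriers. Levels are the deposited log2 values, on which a difference of 1 is a doubling.

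Striated muscle contracts when thick filaments of myosin pull on thin filaments of actin. Calcium released from the sarcoplasmic reticulum through ryanodine receptors binds troponin C, the troponin complex moves tropomyosin off the myosin sites of actin, and calcium ATPases pump the calcium back. Neurons use close relatives of this machinery, with ryanodine receptors and calcium pumps in the endoplasmic reticulum and with actin, tropomyosin and actinin in dendritic spines. HDAC4, a class IIa histone deacetylase, is known in muscle as a repressor of genes driven by MEF2 transcription factors.

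The promoters of the 4 noted genes and of Acta1, the skeletal muscle actin, are shown because these are the members above background with some of the clearest differences between genotypes, and because muscle promoters are known for short shared elements. Each sequence runs 5′ to 3′ on the gene's own strand from 250 bases before to 50 bases after the start in RefSeq (GRCm38.p6), and capitals mark matches to the motifs searched. The windows are chr14:54994577-54994876 on the minus strand for Myh7, chr11:104550413-104550712 on the plus strand for Myl4, chr14:31208062-31208361 on the plus strand for Tnnc1, chr7:29125102-29125401 on the minus strand for Ryr1 and chr8:123894726-123895025 on the minus strand for Acta1. For Myh7, with 2 starts listed, the first was used.
Myh7: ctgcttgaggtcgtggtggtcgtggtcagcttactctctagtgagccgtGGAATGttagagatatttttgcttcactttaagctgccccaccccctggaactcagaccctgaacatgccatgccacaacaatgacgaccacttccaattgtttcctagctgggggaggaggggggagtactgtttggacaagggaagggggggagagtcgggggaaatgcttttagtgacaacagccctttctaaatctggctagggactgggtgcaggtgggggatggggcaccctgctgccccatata
Myl4: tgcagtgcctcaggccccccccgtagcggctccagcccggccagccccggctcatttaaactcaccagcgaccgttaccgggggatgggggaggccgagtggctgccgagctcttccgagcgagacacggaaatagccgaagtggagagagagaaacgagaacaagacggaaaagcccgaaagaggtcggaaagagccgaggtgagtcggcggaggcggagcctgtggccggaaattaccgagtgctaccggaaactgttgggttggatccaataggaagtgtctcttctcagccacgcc
Tnnc1: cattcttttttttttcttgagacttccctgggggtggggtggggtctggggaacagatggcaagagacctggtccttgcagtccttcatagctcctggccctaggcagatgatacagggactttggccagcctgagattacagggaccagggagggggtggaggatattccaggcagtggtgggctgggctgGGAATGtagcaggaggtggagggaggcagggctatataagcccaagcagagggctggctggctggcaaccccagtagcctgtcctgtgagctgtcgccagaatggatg
Ryr1: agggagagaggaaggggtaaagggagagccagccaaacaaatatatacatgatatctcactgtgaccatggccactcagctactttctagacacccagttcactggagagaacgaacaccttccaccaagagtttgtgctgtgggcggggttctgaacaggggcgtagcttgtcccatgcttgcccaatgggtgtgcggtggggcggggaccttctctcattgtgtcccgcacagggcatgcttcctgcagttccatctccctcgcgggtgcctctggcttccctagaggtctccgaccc
Acta1: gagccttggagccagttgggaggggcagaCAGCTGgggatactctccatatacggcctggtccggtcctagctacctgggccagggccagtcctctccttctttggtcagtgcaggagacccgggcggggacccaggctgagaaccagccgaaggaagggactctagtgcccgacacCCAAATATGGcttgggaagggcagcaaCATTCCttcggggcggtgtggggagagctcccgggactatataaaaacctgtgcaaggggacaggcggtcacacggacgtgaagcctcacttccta

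Of the 40 members, 34 had a promoter in the table. Both strands were searched for 4 motifs, which are the MEF2 site, the CArG box bound by serum response factor, the M-CAT element CATTCC bound by TEAD factors and the E-box CAGCTG bound by MyoD and its relatives, and no match overlapped another in these windows. Myh7 and Tnnc1 each held an M-CAT element, in reverse orientation, at bases 50 and 193 of the window. Acta1 held an E-box at base 30, a CArG box at base 178 and an M-CAT element at base 205. The windows of Myl4 and Ryr1 held no match to these letters. Among the 34 promoters, 6 held a MEF2 site (Casq2, Mybpc3, Myh1, Myh4, Myh8 and Ttn), against 3.26% of all 27025 promoters of that length. A CArG box was present in 5 of the 34 and in 1.57% of all. The M-CAT element was present in 13 of the 34 and in 14.6% of all, and the E-box in 13 of the 34 and in 16.1% of all. None of the 4 noted genes held a MEF2 site in this window. These matches describe the sequence and were not tested as binding sites.

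Several features of the arrays bear on the values below. Array medians lay between 6.16 and 6.21, and arrays of 1 genotype correlated at 0.993 to 0.998. Hdac4 itself followed the labelled genotype on every array, with means of 8.48 in WT, 7.92 in Hdac4HET, 8.43 in R6/2 and 7.79 in Dble::R6/2 cortex. Olfactory bulb markers were higher than on any WT array on 7 arrays, 6 of Hdac4HET and 1 of Dble::R6/2 mice, and on 6 arrays the sex-linked genes did not match the sex given in the labels. The study's methods leave out arrays of low quality without naming them, so all 37 were used. Those methods give fewer WT, Hdac4HET and Dble::R6/2 mice than the groups here hold. Arrays that the study left out may therefore be among the 37.

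The list was not uniformly expressed. The deposited table holds no detection calls, so the limit of background was set at 5.58, the 95th percentile of the mean levels of 126 probe sets for olfactory, vomeronasal and taste receptors and keratin-associated proteins, whose median was 3.66. By this limit 21 members were above background and 19 were near it, and 58.6% of all probe sets were above it. Those near background were Myh1, Myh2, Myh4, Myh6 and Myh8, the light chains Myl2 and Myl7, the troponins Tnnc2, Tnni3 and Tnnt3, Actc1, Actn3, Casq1, Atp2a1, Ttn, Neb, Mybpc2, Mybpc3 and Ckm. Most of the fast skeletal and several of the cardiac isoforms were thus among the 19. Their mean levels ran from 3.35 for Myh6, the alpha cardiac myosin heavy chain, to 5.55 for Atp2a1, the fast muscle calcium pump. Myl3, at 5.58, lay just above the limit.

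**Figure D1:**
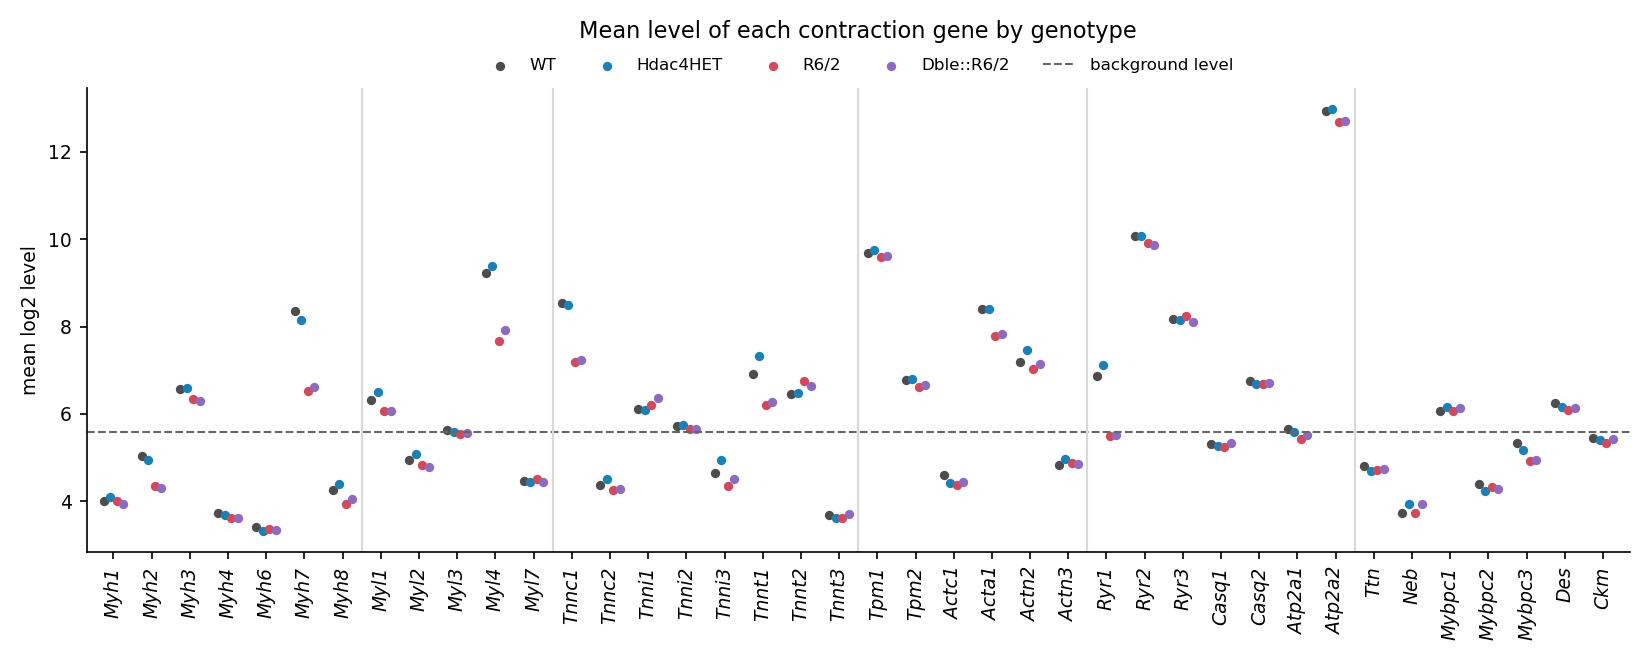
Mean log2 level of the brightest probe set of each of the 40 contraction genes in WT, Hdac4HET, R6/2 and Dble::R6/2 cortex (9, 9, 9 and 10 mice), grouped by role from myosin heavy chains on the left to scaffold and energy genes on the right. The dashed line is the background level of 5.58, and 19 genes have a mean over all arrays at or below it. Points may be compared within a gene, not between genes.

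Myh7, the slow and beta cardiac myosin heavy chain, had levels of 7.65 (lowest), 8.41 (median) and 8.77 (highest) in WT cortex and of 5.79, 6.63 and 6.89 in R6/2 cortex. In Hdac4HET cortex its lowest, median and highest levels were 7.41, 8.05 and 8.69, and in Dble::R6/2 cortex they were 6.15, 6.58 and 7.05. Every array of a mouse with the transgene was thus below every array of a mouse without it. For Myh7, as for Myl4, Tnnc1 and Ryr1 below, the R6/2 and WT levels are those for which the gene was noted. WT cortex had a mean of 8.35 ± 0.37 (SD, n = 9) and R6/2 cortex of 6.52 ± 0.33 (n = 9), a log2 difference of -1.83. In Dble::R6/2 against Hdac4HET cortex Myh7 was 2.87-fold lower, at a log2 change of -1.52 ± 0.15 (SE; limma adjusted p = 2.61e-10). The probes of Myh7 may also detect Myh6, a near-identical neighbour. The separate probe set for Myh6 was near background.

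Myl4, the atrial and embryonic essential light chain of myosin, had levels of 8.96, 9.21 and 9.59 (lowest, median and highest) in WT and 7.20, 7.79 and 7.99 in R6/2 cortex. In Hdac4HET cortex the same 3 values were 9.04, 9.38 and 9.90, and in Dble::R6/2 cortex 7.56, 7.93 and 8.41. The transgenic and non-transgenic arrays did not overlap. The difference between the R6/2 mean of 7.66 ± 0.29 (SD, n = 9) and the WT mean of 9.23 ± 0.18 (n = 9) was -1.56. Against Hdac4HET cortex, Myl4 fell 2.79-fold in Dble::R6/2 cortex, with a log2 change of -1.48 ± 0.11 (SE; adjusted p = 1.12e-13). A second, dimmer probe set of Myl4 with a mean level of 5.84 changed by -0.16 in that comparison (adjusted p = 0.0539). The probe sets disagree, and with the mean of both probe sets the Myl4 change was -0.82.

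Tnnc1, the troponin C of slow and cardiac muscle, had levels of 8.14, 8.47 and 9.07 (lowest, median and highest) in WT and 6.91, 7.26 and 7.41 in R6/2 cortex. In Hdac4HET cortex they were 7.95, 8.53 and 8.99, and in Dble::R6/2 cortex 6.83, 7.26 and 7.69. Again no transgenic array reached the lowest non-transgenic one. The R6/2 mean of 7.18 ± 0.19 (SD, n = 9) differed from the WT mean of 8.55 ± 0.36 (n = 9) by -1.37. Dble::R6/2 cortex had 2.40-fold less Tnnc1 than Hdac4HET cortex, with a log2 change of -1.26 ± 0.12 (SE; adjusted p = 1.23e-10).

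Ryr1, the calcium release channel of skeletal muscle, had levels of 6.60, 6.87 and 7.12 (lowest, median and highest) in WT and 5.35, 5.48 and 5.75 in R6/2 cortex. In Hdac4HET cortex they were 6.71, 7.15 and 7.36, and in Dble::R6/2 cortex 5.13, 5.58 and 5.80. All arrays without the transgene were above background, whereas 6 of 9 R6/2 and 5 of 10 Dble::R6/2 arrays were at or below it. The difference of the means was -1.38 in R6/2 against WT cortex. Between Hdac4HET and Dble::R6/2 cortex Ryr1 was 3.04-fold lower in the latter, with a log2 change of -1.60 ± 0.09 (SE; adjusted p = 1.93e-17), and because the lower group lies at the background limit this fold may understate the change. The second Ryr1 probe set, with a mean level of 5.98, gave -1.57 ± 0.10 (SE; adjusted p = 6.44e-16), so both probe sets fell.

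**Figure D2:**
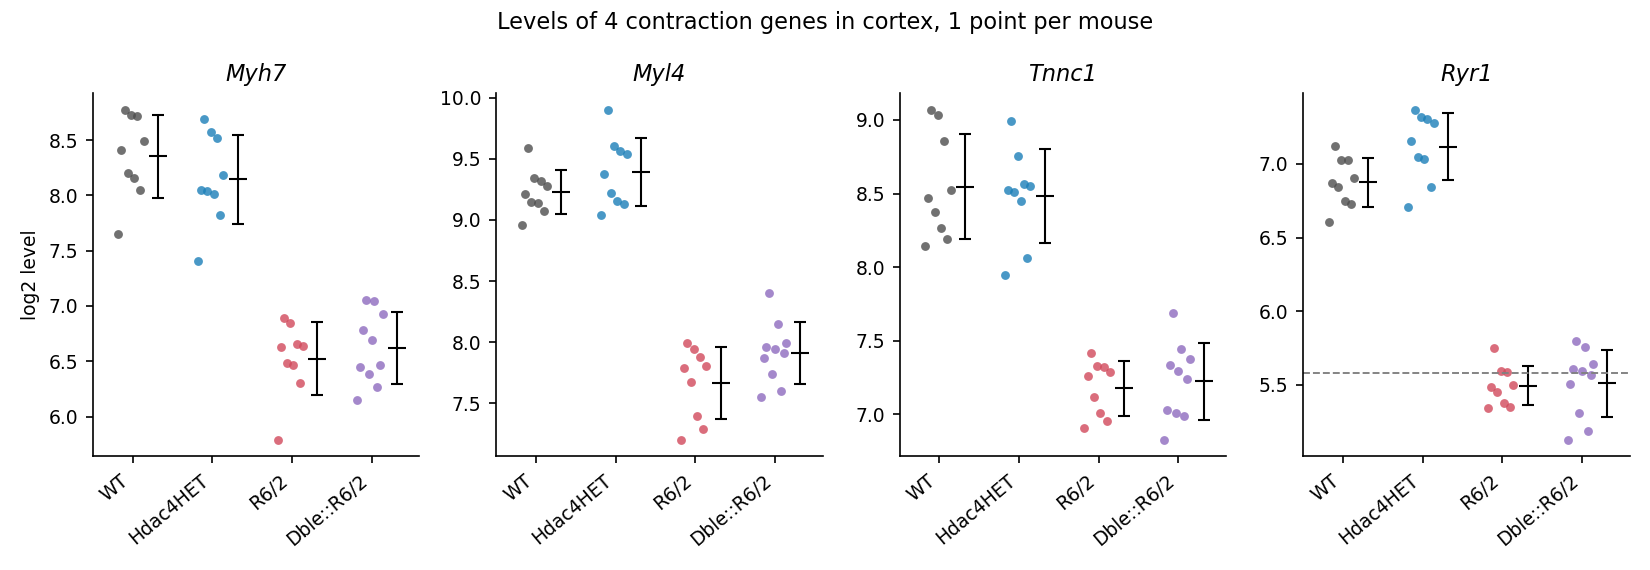
Log2 levels of Myh7, Myl4, Tnnc1 and Ryr1 in cortex of WT, Hdac4HET, R6/2 and Dble::R6/2 mice (9, 9, 9 and 10), with 1 point per mouse and mean ± SD as black bars. For all 4 genes the R6/2 and Dble::R6/2 points lie below every WT and Hdac4HET point, and the dashed line in the Ryr1 panel is the background level of 5.58. The R6/2 and WT points are those for which the genes were noted.

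Over the whole list, 8 of 40 members passed an adjusted p under 0.05 and a 1.3-fold change in Dble::R6/2 against Hdac4HET cortex, all 8 lower, against 4.08% of all genes called lower. They were Myh2, Myh7, Myl4, Tnnc1, Tnni3, Tnnt1, Acta1 and Ryr1. Among them are the 4 genes first noted for lower levels in R6/2 than in WT cortex, so the count is not independent of that choice. Myh2 and Tnni3 had mean levels near background. None was called higher by limma, where 2.6% of all genes were, nor by the methods' t-test. With an unadjusted limma p under 0.05, 1 member, Tnni1, was higher, and the share of all genes was not computed. At any fold size 18 members passed the adjusted p, each of them lower. The share of all genes at that looser cut was not computed, so this count cannot be called high or low. The median log2 change of the 40 was -0.12, against 0.04 over all genes. Without the 7 arrays with raised bulb markers, which leaves 3 Hdac4HET mice, 8 members were called lower, of which 7 were the same genes. Tnni3, which was near background on all but 1 array (Hdac4HET, 5.84), lost its call (adjusted p = 0.357) and Myh3 gained one. Of the 14 bulb markers, 13 were themselves called lower in Dble::R6/2 against Hdac4HET cortex, and their mean ran from 6.05 to 8.29 in Hdac4HET and from 5.79 to 6.82 in Dble::R6/2 cortex. In bulk tissue, fewer cells of a type and less RNA per cell cannot be told apart.

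In R6/2 against WT cortex, the comparison used to note the first 4 genes, 8 members were past the same 2 thresholds, all lower, beside 3.3% of all genes lower and 3.75% higher. They were Myh2, Myh7, Myl4, Tnnc1, Tnnt1, Acta1, Ryr1 and Mybpc3. These counts describe the values that entered the choice and test nothing. Nearest the fold threshold lay Mybpc3 inside it, at -0.41, and Myh8 and Tnni3 outside it, at -0.32 and -0.31, all 3 with means near background in both groups. The median difference of the 40 members was -0.11 and that of all genes 0.00.

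Levels of 8 members did not overlap between all Dble::R6/2 and all Hdac4HET arrays, beside 4.29% of all genes with every array lower. These were Myh2, Myh7, Myl4, Tnnc1, Tnnt1, Acta1, Ryr1 and Atp2a2, with the 4 noted genes among them. In R6/2 against WT cortex 10 members did not overlap, beside 3.84% of all genes, and the further ones were Mybpc3 and Myh8.

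**Figure D3:**
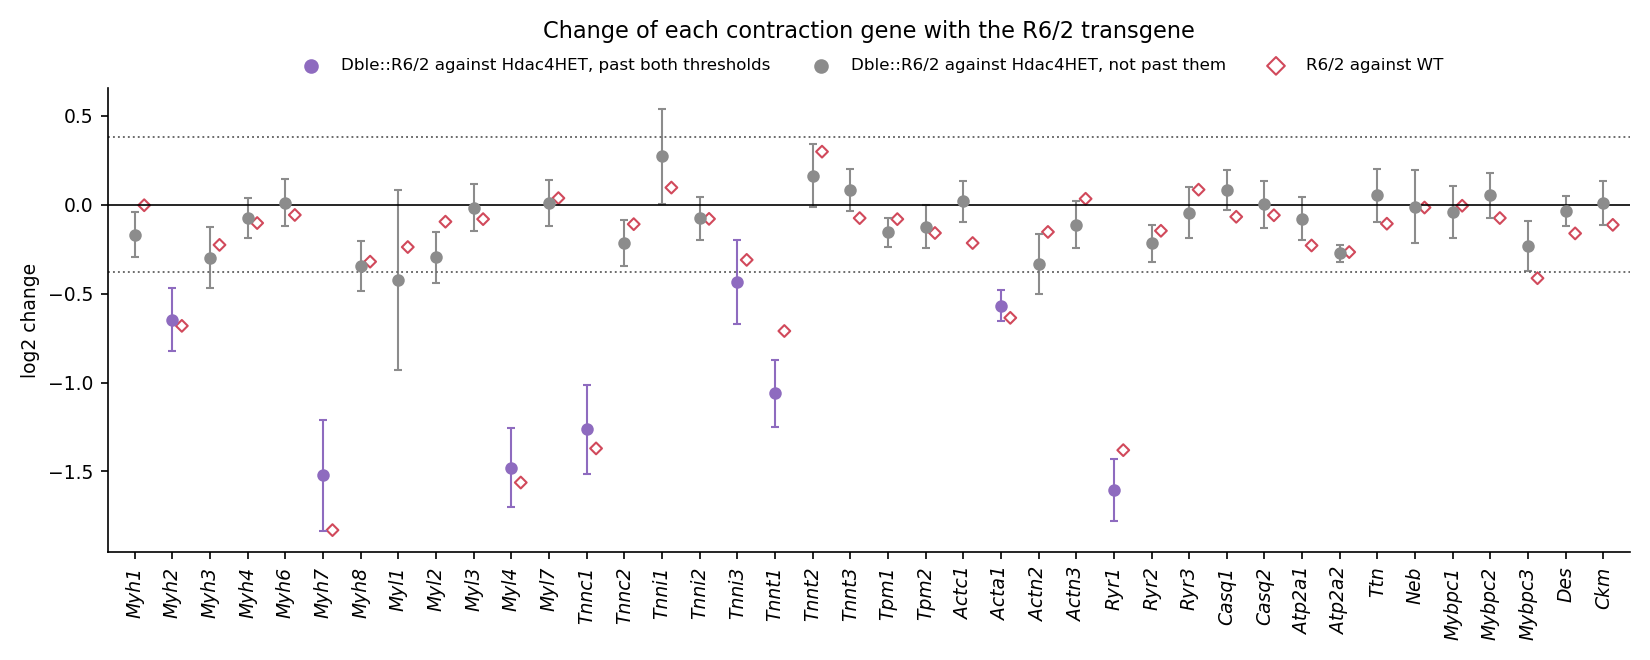
Log2 change of each of the 40 contraction genes in Dble::R6/2 against Hdac4HET cortex (filled circles with 95% confidence intervals from limma) and in R6/2 against WT cortex (open diamonds, shown without intervals). These comparisons share no arrays, but the intervals use a spread estimated over all 37 arrays. The dotted lines mark a 1.3-fold change. The 8 genes past the thresholds lie below the lower dotted line, and Ryr1, Myh7, Myl4 and Tnnc1 lie farthest down, at -1.60 to -1.26.

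Among the 7 myosin heavy chains, Myh7 and Myh2 were called lower in Dble::R6/2 against Hdac4HET cortex. Myh2, a fast skeletal isoform, was near background on every array, with means of 4.95 in Hdac4HET and 4.31 in Dble::R6/2 cortex (adjusted p = 1.31e-07). Its sequence is close to those of Myh1, Myh4 and Myh8, and shared detection among them is uncertain. Myh3, the embryonic heavy chain, was above background with means of 6.56, 6.59, 6.34 and 6.29 in WT, Hdac4HET, R6/2 and Dble::R6/2 cortex, and its change of -0.30 was under the fold threshold (adjusted p = 0.00488). It was -0.48 without the arrays with raised bulb markers (adjusted p = 0.00347).

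Of the 5 light chains only Myl4 was called. Myl1, the fast essential light chain, varied widely between mice, from 5.17 upward in WT cortex with an SD of 0.74 (n = 9), and its change in Dble::R6/2 against Hdac4HET cortex was -0.42 ± 0.25 (SE; adjusted p = 0.197), or -0.77 (adjusted p = 0.072) without the bulb arrays. Its means were 6.31, 6.50, 6.08 and 6.07 in WT, Hdac4HET, R6/2 and Dble::R6/2 cortex. The ventricular light chain Myl3 had means of 5.63, 5.59, 5.55 and 5.57 in the same order, and its 95% interval of change ran from -0.15 to 0.12.

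The troponins differed among themselves. Besides Tnnc1, the slow skeletal tropomyosin-binding subunit Tnnt1 fell in Dble::R6/2 cortex. Its lowest, median and highest levels were 6.66, 6.87 and 7.41 in WT and 6.00, 6.25 and 6.38 in R6/2 cortex. They were 7.06, 7.27 and 7.74 in Hdac4HET and 5.90, 6.32 and 6.54 in Dble::R6/2 cortex, so that the transgenic arrays were again the lower ones without overlap. The change of Tnnt1 in Dble::R6/2 against Hdac4HET cortex was -1.06 ± 0.09 (SE; adjusted p = 8.81e-12), a 2.09-fold fall.

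The inhibitory subunit of slow muscle, Tnni1, had means of 6.11, 6.08, 6.21 and 6.35 in WT, Hdac4HET, R6/2 and Dble::R6/2 cortex (0.27 ± 0.13 (SE) in Dble::R6/2 against Hdac4HET, adjusted p = 0.105). Without the bulb arrays its change was 0.0053 (adjusted p = 0.99). The cardiac Tnnt2 had means of 6.45, 6.48, 6.75 and 6.64 and a change of 0.16 ± 0.09 (SE; adjusted p = 0.147). The fast inhibitory subunit Tnni2 had means of 5.73, 5.74, 5.65 and 5.66, with an interval of change from -0.20 to 0.04. The slow and cardiac troponin C was called lower, and so was Tnnt1. Neither Tnni1 nor Tnnt2, which can also join it in a troponin complex, was called. Tnni3, another inhibitory subunit, was called lower at -0.43 (limma adjusted p = 0.00266), but it was near background and lost the call without the bulb arrays.

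In the thin filament and its anchors, Acta1 was called lower. Its lowest, median and highest levels were 8.27, 8.37 and 8.63 in WT, 8.30, 8.40 and 8.47 in Hdac4HET, 7.58, 7.76 and 7.94 in R6/2, and 7.76, 7.81 and 7.97 in Dble::R6/2 cortex. The spread within each genotype was narrow and the transgenic arrays did not reach the others. The change of Acta1 in Dble::R6/2 against Hdac4HET cortex was -0.57 ± 0.04 (SE; adjusted p = 1.28e-13), a 1.48-fold fall. Actn2, the muscle alpha-actinin that also sits in spines, had means of 7.18, 7.47, 7.02 and 7.14 in WT, Hdac4HET, R6/2 and Dble::R6/2 cortex, and its change of -0.33 was under the fold threshold (adjusted p = 0.00143). Without the bulb arrays the Actn2 change was -0.20 and did not pass the adjusted p (0.312).

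Tropomyosin genes are expressed widely outside muscle. Tpm1 had means of 9.68, 9.76, 9.60 and 9.61 in WT, Hdac4HET, R6/2 and Dble::R6/2 cortex, with a change of -0.15 (adjusted p = 0.00236), which was -0.16 (adjusted p = 0.0767) without the bulb arrays. A dimmer Tpm1 probe set, with a mean level of 6.55, fell by 0.47 (adjusted p = 1.18e-05), past both thresholds, so the probe sets of this gene differ in size of change. Tpm2 had means of 6.78, 6.79, 6.62 and 6.67, and its change of -0.12 did not pass (adjusted p = 0.102). A Tpm2 probe set near background, with a mean level of 4.67, changed by -0.39 (adjusted p = 0.0283), past both thresholds. Its remaining probe sets, at mean levels of 6.20 and 5.34, changed by -0.15 and -0.10 and did not pass.

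**Figure D4:**
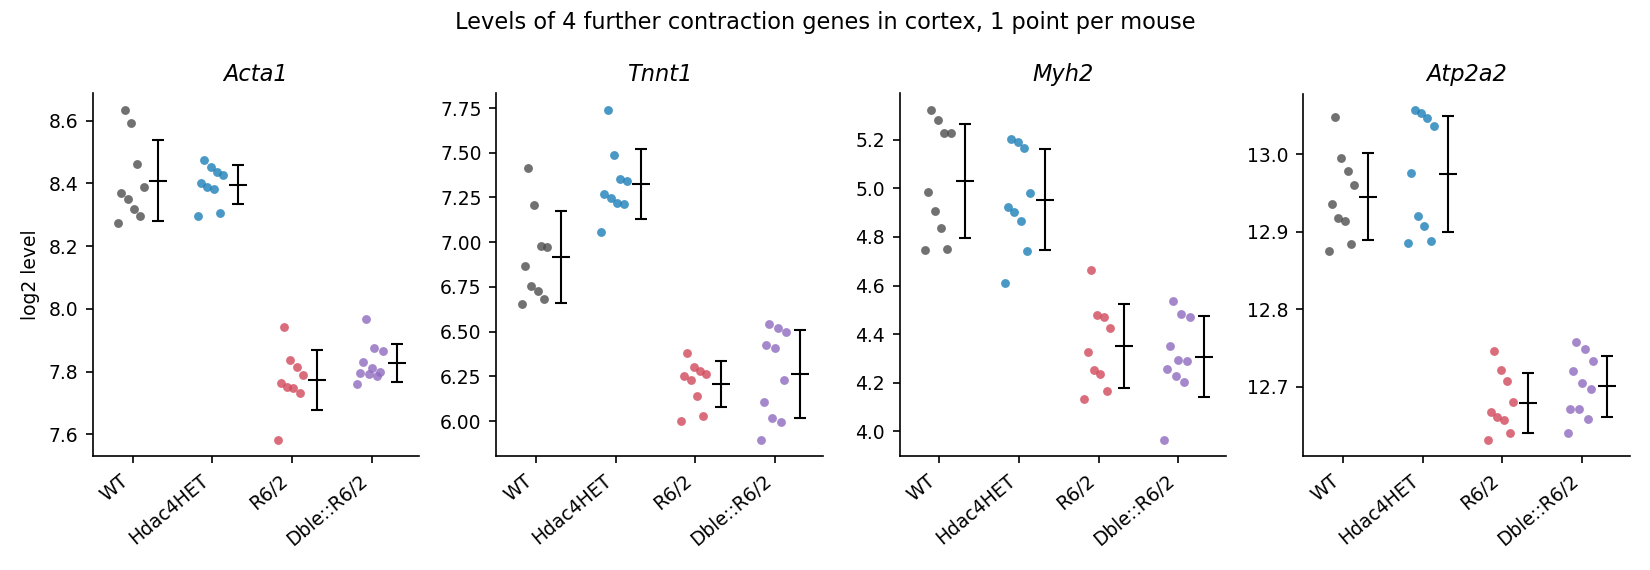
Log2 levels of Acta1, Tnnt1, Myh2 and Atp2a2 in cortex of WT, Hdac4HET, R6/2 and Dble::R6/2 mice (9, 9, 9 and 10), with 1 point per mouse and mean ± SD as black bars. In each panel the R6/2 points lie below all WT points and the Dble::R6/2 points below all Hdac4HET points, over ranges that differ between panels. In the Myh2 panel the highest R6/2 mouse (4.66) is above the lowest Hdac4HET mouse (4.61), and all Myh2 points are under the background level of 5.58.

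Of the 7 genes of the calcium store, Ryr1 alone was called. Ryr2, the receptor of heart that is also abundant in brain, had means of 10.07 ± 0.11 (SD, n = 9), 10.08 ± 0.16 (n = 9), 9.92 ± 0.12 (n = 9) and 9.86 ± 0.06 (n = 10) in WT, Hdac4HET, R6/2 and Dble::R6/2 cortex. Its change of -0.22 ± 0.05 (SE) in Dble::R6/2 against Hdac4HET cortex passed the adjusted p (0.00086) but not the fold threshold. Ryr3 had means of 8.17, 8.15, 8.25 and 8.10, and the 95% interval of its change, -0.19 to 0.10, does not reach the change of Ryr1.

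Atp2a2, the slow muscle and housekeeping calcium pump SERCA2, had lowest, median and highest levels of 12.89, 12.98 and 13.06 in Hdac4HET and 12.64, 12.70 and 12.76 in Dble::R6/2 cortex. Its change was small and uniform, at -0.27 ± 0.02 (SE; adjusted p = 1.59e-11), with no overlap between the groups, and the difference was also -0.27 in R6/2 against WT cortex. Of its 5 other probe sets, the 2 at mean levels of 12.05 and 11.62 changed by -0.16 and -0.29, while those at 8.05, 7.75 and 5.06 lay between -0.10 and -0.02 and did not pass. Casq2, a calcium-binding protein of the store, had means of 6.74, 6.70, 6.69 and 6.70 in WT, Hdac4HET, R6/2 and Dble::R6/2 cortex, with an interval of change from -0.13 to 0.13.

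None of the 7 scaffold, intermediate filament and energy genes was called in Dble::R6/2 against Hdac4HET cortex. Desmin (Des) had means of 6.24, 6.17, 6.08 and 6.13, and the slow myosin-binding protein Mybpc1 of 6.08, 6.17, 6.07 and 6.13, in WT, Hdac4HET, R6/2 and Dble::R6/2 cortex. Titin, nebulin and muscle creatine kinase were near background, and the changes of the 7 genes ran from -0.23 to 0.05. Without the bulb arrays the change of Mybpc1 was 0.24 (adjusted p = 0.0442), under the fold threshold.

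Few members differed with reduced Hdac4. In Hdac4HET against WT cortex, which shares the WT arrays with the comparison used to choose the genes, 1 of 40 members was called higher, Tnnt1, against 0.346% of all genes. None was called lower by limma, beside 0.022% of genes. At an unadjusted p under 0.05, 3 were lower and 4 higher, and the share of all genes at that cut was not computed. The Tnnt1 change was 0.41 ± 0.10 (SE; adjusted p = 0.0233). It was 0.26 (adjusted p = 0.633) without the arrays with raised bulb markers, and the methods' t-test did not call it. The call was also lost without WT replicate 1, 3, 5 or 6 or without Hdac4HET replicate 1, with changes from 0.36 to 0.47 over all arrays left out in turn. Bulb markers were higher in the Hdac4HET group itself, with 9 of 14 called, and their mean ran from 6.05 to 8.29 there against 5.95 to 6.40 in WT cortex. Their part in the Tnnt1 result was not tested beyond these values.

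For the 4 noted genes, the 95% intervals of Hdac4HET against WT ran from -0.53 to 0.11 for Myh7, -0.07 to 0.39 for Myl4, -0.32 to 0.19 for Tnnc1 and 0.06 to 0.42 for Ryr1. None passed the adjusted p, and that of Ryr1 was 0.151. Without the bulb arrays the change was 0.10 for Ryr1 (adjusted p = 0.89), from 0.24 with them, and 0.38 for Myl4 (adjusted p = 0.512), from 0.16.

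In Dble::R6/2 against R6/2 cortex, which shares the R6/2 arrays with the comparison used to choose the genes, no member was called in either direction by limma or by the methods' t-test, beside 0.066% of genes called lower and 0.022% called higher. At an unadjusted p under 0.05, 1 was lower (Ryr3) and 2 were higher (Myl4 and Neb), and the share of all genes was not computed. Myl4 had a log2 change of 0.25 with an interval from 0.02 to 0.47 (adjusted p = 0.234). For Myh7 the interval ran from -0.21 to 0.41, for Tnnc1 from -0.20 to 0.30 and for Ryr1 from -0.16 to 0.19. The Ryr1 levels of both groups lay around the background limit.

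The interaction asks directly whether the transgene effect differed with the null allele. It contains the R6/2 against WT difference used to choose the genes, so its p values draw on those values too. No member was called by limma in either direction, beside 0.121% and 0.066% of genes called lower and higher. With an unadjusted p under 0.05, 1 was lower and 2 were higher, and the share of all genes was not computed. The estimates were 0.31 ± 0.22 (SE) for Myh7 (adjusted p = 0.452), 0.08 ± 0.16 for Myl4, 0.11 ± 0.18 for Tnnc1 and -0.22 ± 0.12 for Ryr1 (adjusted p = 0.318). For Tnnt1 it was -0.35 ± 0.13 (SE; adjusted p = 0.148). Without the bulb arrays the estimates for Ryr1 and Tnnt1 were -0.096 and -0.23 (adjusted p = 0.873 and 0.66).

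Myl4 and Tnnc1 also varied together between mice of the same genotype. The deviations of each mouse from its genotype mean correlated at r = 0.66 and rho = 0.63 over 37 mice (permutation within genotypes, two-sided, p = 2e-05 and 4e-05, adjusted over 6 pairs 0.00012 and 0.00024). Without the 2 mice farthest from the median of Myl4, r was 0.56. Within genotypes r was 0.386 in WT, 0.878 in Hdac4HET, 0.812 in R6/2 and 0.683 in Dble::R6/2 cortex, and without the arrays with raised bulb markers it was 0.58 over 30 mice. The other 5 pairs of noted genes had r between -0.22 and 0.15, and none passed after adjustment. For Myh7 and Myl4, r was -0.22 and rho -0.19 (permutation adjusted p = 0.632 and 0.701). The r of this pair differed between genotypes, at 0.266 in WT, -0.0379 in Hdac4HET, -0.721 in R6/2 and -0.289 in Dble::R6/2 cortex.

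**Figure D5:**
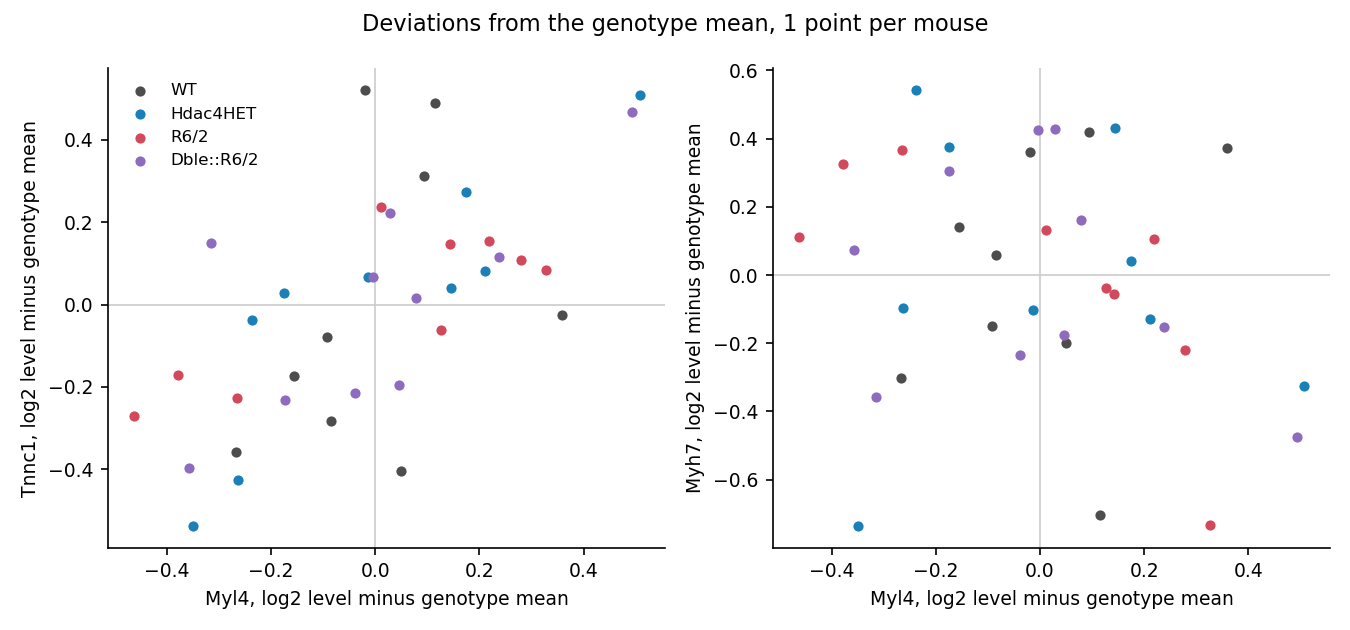
Deviation of each mouse from the mean log2 level of its genotype, for Tnnc1 against Myl4 (left) and Myh7 against Myl4 (right), with 1 point per mouse and colours for the 4 genotypes. Points on the left follow a rising diagonal (r = 0.66 over 37 mice) and those on the right do not (r = -0.22).

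Markers of other cells and regions were set beside these values. The skeletal muscle list, with 15 of 16 genes measured, had 3 above background, Tcap, Pygm and Eno3. The defining regulators Myog, Myod1 and Myf6 were near background, at 3.69, 4.15 and 3.78, and so was the fast light chain Mylpf at 5.37. The summed list, as its mean per array, ran from 4.63 to 4.86 in WT, 4.68 to 4.81 in Hdac4HET, 4.56 to 4.73 in R6/2 and 4.58 to 4.75 in Dble::R6/2 cortex. Only Tcap was called, lower in both comparisons of the transgene. None of the 12 smooth muscle and mural cell markers, 9 of them above background, was called by limma in any of the 5 comparisons.

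As a mean, excitatory neuron markers were lower with the transgene, though most of them were not called singly. Their mean over 9 genes ran from 9.88 to 10.09 in WT and 9.85 to 10.07 in Hdac4HET cortex, and from 9.49 to 9.86 in R6/2 and 9.48 to 9.83 in Dble::R6/2 cortex. Of the 9, 3 were called lower in Dble::R6/2 against Hdac4HET cortex, Cux2, Fezf2 and Lamp5. Striatal markers, 8 genes, ran from 8.18 to 9.29 in WT, 8.83 to 9.49 in Hdac4HET, 7.69 to 8.74 in R6/2 and 8.03 to 8.59 in Dble::R6/2 cortex, and all 8 were called lower in Dble::R6/2 against Hdac4HET. With the striatal mean as a covariate, chosen after seeing the data, 8 members were called lower in that comparison, of which 7 were the same genes. Because the striatal mean itself differed with the transgene, this fit cannot separate it from genotype. The part of excitatory and striatal neurons in the other values was not tested.

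Within genotypes, the excitatory mean went with the noted genes in different directions over 37 mice. Its correlation, with permutation p adjusted over 8 relations computed after seeing the data, was r = 0.60 and rho = 0.57 for Myl4 (0.00184 and 0.00656), r = 0.46 and rho = 0.43 for Tnnc1 (0.00669 and 0.0225), and r = -0.54 and rho = -0.50 for Myh7 (0.00208 and 0.00916). Without the 2 mice farthest from the median of the gene these were 0.51, 0.50 and -0.55. Without the arrays with raised bulb markers, r was 0.54, 0.40 and -0.58 over 30 mice, and for Tnnc1 the rho no longer passed (permutation adjusted p = 0.174). Ryr1 went with the striatal mean at r = 0.41 and rho = 0.35 (permutation adjusted p = 0.0134 and 0.065), and at r = 0.36 without the bulb arrays (adjusted p = 0.0828).

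Other genes of the contraction pathway were listed apart from the 40. Of 62 such genes, 61 were measured and 39 were above background. In Dble::R6/2 against Hdac4HET cortex 6 were called lower (9.84% of the list, against 4.08% of all genes) and none higher by limma, with a median change of -0.02. The 4 with the lowest p were Tmod1, a tropomodulin that caps the slow end of actin filaments, Jph4, a neuronal junctophilin that tethers the endoplasmic reticulum to the plasma membrane, Tcap, the titin cap, and Mylk3, the cardiac myosin light chain kinase.

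Tmod1 ranged from 9.79 to 9.95 in Hdac4HET and 9.18 to 9.46 in Dble::R6/2 cortex, a change of -0.57 ± 0.04 (SE; adjusted p = 6.31e-15). Jph4 ranged from 11.11 to 11.35 and from 10.77 to 10.91, a change of -0.40 ± 0.03 (SE; adjusted p = 2.21e-12). Tcap ranged from 6.71 to 7.23 and from 5.61 to 6.20, a change of -0.87 ± 0.08 (SE; adjusted p = 6.09e-11). None of these 3 overlapped between the groups. Mylk3 ranged from 6.06 to 6.75 and from 5.47 to 5.90, with 5 of 10 Dble::R6/2 arrays at or below background, a change of -0.64 ± 0.08 (SE; adjusted p = 6.52e-09).

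Stac3, an adaptor of the muscle calcium channel, was called lower too, at -0.47 (adjusted p = 2.97e-05). Trdn, triadin, was near background and was called lower here (adjusted p = 0.000636) and higher in Hdac4HET against WT cortex (adjusted p = 0.0308). Of the 14 bulb markers, 13 were likewise called lower here and 9 higher in Hdac4HET against WT cortex. The part of the bulb arrays in the values of the pathway genes was not tested. In R6/2 against WT cortex 5 of the 61 were past the thresholds, all lower (8.2%, beside 3.3% of all genes). They were Mylk3, Tmod1, Jph4, Stac3 and Tcap. None was called in Dble::R6/2 against R6/2 cortex.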

How the data were processed

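Cortex RNA of 37 mice was measured, 1 array per mouse, with genotype, replicate number and sex from the labels. A single table of log2 values for 45037 probe sets was deposited by the authors. For the summary of the probes and its normalization, no method was found in the sources used here, which describe quality control with RACE. The values were used as deposited, and 0 array columns were left without a sample. In the platform annotation 34945 probe sets carry 1 gene symbol, and those with several or none named no gene. The number of arrays limits the precision.

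R 4.3.3 with limma 3.58.1 fitted the 4 genotype means over all 37 arrays (lmFit, eBayes with trend), and Benjamini-Hochberg adjustment ran over all probe sets. A probe set was called at an adjusted p under 0.05 and over 1.3-fold. All p values beside means of fewer than 10 mice come from this model. Correlations used deviations from genotype means with 100000 permutations within genotypes. The calls and correlations were tested on simulated data, and figures were drawn with Python 3.11.15.

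The members and lists were chosen with earlier results of these data known. By rule, the 4 noted genes are given in full, other members above background with group means, those near background by range and count, and up to 4 called genes of the pathway list with the lowest p. Myh2, Tnni3, Stac3 and Trdn, the marker genes and the dimmer probe sets were named after their values were seen. Alternatives were quantile normalization, only bright probe sets, the methods' t-test, a fit of only the compared genotypes, sex as a covariate, the replicate block, array weights, no trend, other choices of probe set, no fold threshold, other background limits, leaving out arrays with raised bulb markers or sex-linked genes against the label, the bulb mean as a covariate, and each array left out in turn.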

Additional observations from a re-analysis of the deposited data

Results flagged for a closer look

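In 96 groups of mice, 4 genotypes for 24 genes, single arrays were compared with the rest of their group, and chance marks about 1 in 20 such groups. A far value was found in 3 groups. Myh3 in WT cortex was highest in replicate 6, at 6.942, with the next mouse at 6.616. Mybpc1 in R6/2 cortex was highest in replicate 8, at 6.338, with the next at 6.139. Des in WT cortex was highest in replicate 8, at 6.373, with the next at 6.265. None of the 3 genes was called in any comparison with all arrays included.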

How the results depend on the processing

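The falls of Myh7, Myl4, Tnnc1, Ryr1 and Tnnt1 in Dble::R6/2 against Hdac4HET cortex kept their direction and stayed past the thresholds under every alternative run. Their log2 changes ran from -1.56 to -1.35, -1.76 to -0.82, -1.54 to -1.24, -1.62 to -1.32 and -1.09 to -0.86 over 15 alternatives, and the smallest Myl4 value came from the mean of its 2 probe sets. With each array left out they were -1.61 to -1.45, -1.53 to -1.41, -1.33 to -1.20, -1.66 to -1.56 and -1.09 to -1.01. The members called lower numbered 7 to 9 in that comparison and 7 to 8 in R6/2 against WT with each array left out. The member called higher in Hdac4HET against WT numbered 0 to 1, and the other counts stayed at 0. Over the 15 alternatives, members called lower numbered 6 to 18 in Dble::R6/2 against Hdac4HET and 6 to 17 in R6/2 against WT. The fewest came with only bright probe sets and the most without a fold threshold. With the bulb mean as a covariate, 10 were called lower in Dble::R6/2 against Hdac4HET, with Myh3, Myl1 and Ryr2 gained and Tnni3 lost.

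Without a fold threshold, 17 members were lower and 1 higher in R6/2 against WT, and 18 were lower in Dble::R6/2 against Hdac4HET. The R6/2 against WT counts come from the comparison in which the first genes were noted, and test nothing. The share of all genes without a fold threshold was not computed, neither for these counts nor for the pathway counts that follow. Of the other pathway genes, 20 were then lower and 9 higher in R6/2 against WT, 16 lower and 8 higher in Dble::R6/2 against Hdac4HET, 1 lower and 2 higher in Hdac4HET against WT, and 1 higher in the interaction. With the limit of background at 4.47, the lower quartile of all probe sets, 10 members were near it. The count of members called higher in Hdac4HET against WT was 0 with only the genotypes compared, by the methods' t-test, without the arrays with raised bulb markers, without those with sex-linked genes against the label, and with the bulb or the striatal mean as a covariate, the last chosen after seeing the data.

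Estimates that changed sign were small and uncalled. In Dble::R6/2 against R6/2, Ryr1 was -0.10 with the mean of its probe sets and -0.026 without the sex-mismatched arrays. In Hdac4HET against WT, Tnnc1 was 0.14 without the bulb arrays, 0.18 with the bulb mean and 0.014 with the striatal mean as a covariate. In the interaction, Myl4 was -0.11 and Tnnc1 -0.071 without the bulb arrays, and -0.15 and -0.12 with the bulb mean. The r of Myh7 and Tnnc1 was -0.139 without the bulb arrays. With each array left out, Tnnc1 was -0.13 to 0.0044 in Hdac4HET against WT and -0.0061 to 0.090 in Dble::R6/2 against R6/2, where Ryr1 was -0.015 to 0.060. The cause of these changes was not tested.

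The replicate numbers were not treated as pairing the mice, since 14 of 54 same-numbered pairs of arrays correlated above 0.1 in their deviations and 3 of 37 arrays correlated best with their own number. With the replicate number as a block, 8 members were lower in R6/2 against WT and 8 in Dble::R6/2 against Hdac4HET, the same genes as without it. Over all probe sets the block gave 20 calls in place of 121 in Dble::R6/2 against R6/2, and 78 in place of 113 in the interaction.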
